A study of Mus musculus with 4 samples.

Results

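Germ cell genes and genes of the two-cell-stage embryo were followed in mouse embryonic stem (ES) cells with and without Klf5, a zinc finger transcription factor of the Kruppel-like family. The set holds 34 genes chosen by name: 11 germ-line regulators, 5 meiosis genes, 8 genes of the piRNA pathway and of transposon silencing, 6 Rhox homeobox and other germ cell genes, and 4 two-cell-stage genes. A row of its own on the array was found for 32 of them, out of 18193 genes with such a row. Zscan4c shares its only row with related genes and was not named from it, and Nanos3 was not analysed here. The 32 genes have 37 probe sets, and each gene was summarised by the probe set of highest mean.

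The samples were 2 wild-type (WT) ES cell clones and 2 Klf5 knockout (KO) ES cell clones, with 1 Affymetrix array hybridised per clone. All clones were cultured with LIF, the cytokine that holds mouse ES cells undifferentiated, and 15% serum, and the labels name no treatment. Each clone is a single cell line, and nothing in the labels says whether cultures were repeated, so the spread between arrays is that between clones as labelled. For the parental strain, the deleted part of Klf5 and the use of feeder cells nothing is given in the sources used here.

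In the embryo, germ cells arise from the epiblast when a few cells switch on Prdm1 and Prdm14 and then, in the gonad, Dazl, Ddx4 and the genes of meiosis. The piRNA pathway protects these cells from transposons with small RNAs bound by Piwi proteins. In somatic cells many germ-line promoters are rich in CpG dinucleotides, carry DNA methylation and are kept silent by repressor complexes that recognise E-boxes and E2F sites. Cultured ES cells transcribe a number of germ cell genes at low level, and a small, changing fraction of them passes through a state that expresses genes of the two-cell-stage embryo.

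Promoters are shown for the genes on which the results turn: Dazl, Stra8 and Tex101, which rose in KO clones, Prdm1 and Kit, which fell, and Slc25a31 and Sycp3, which carry the E-box described next and did not pass the test. They are RefSeq promoters of build GRCm38.p6, each running from 250 bases before to 50 bases after the annotated start and written 5′ to 3′ on the strand of the gene. The positions are Dazl, chr17:50293571-50293870, minus strand; Stra8, chr6:34920698-34920997, plus strand; Tex101, chr7:24672001-24672300, minus strand; Prdm1, chr10:44458699-44458998, minus strand. They are Kit, chr5:75574737-75575036, plus strand; Slc25a31, chr3:40708621-40708920, plus strand; Sycp3, chr10:88459337-88459636, plus strand. Capitals mark every match, on either strand, to CACGTG (the E-box of MAX partners), TCCCGC (a core of E2F sites) and GGGCGG (the GC box read by Sp and Kruppel-like factors). Matches to TCCCGC and GGGCGG can overlap.
Dazl: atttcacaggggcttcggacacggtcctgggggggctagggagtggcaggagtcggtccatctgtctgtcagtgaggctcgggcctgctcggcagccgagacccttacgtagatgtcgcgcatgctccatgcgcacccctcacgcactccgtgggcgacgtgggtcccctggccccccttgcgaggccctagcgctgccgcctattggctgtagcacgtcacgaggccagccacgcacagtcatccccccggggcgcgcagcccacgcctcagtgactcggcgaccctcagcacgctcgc
Stra8: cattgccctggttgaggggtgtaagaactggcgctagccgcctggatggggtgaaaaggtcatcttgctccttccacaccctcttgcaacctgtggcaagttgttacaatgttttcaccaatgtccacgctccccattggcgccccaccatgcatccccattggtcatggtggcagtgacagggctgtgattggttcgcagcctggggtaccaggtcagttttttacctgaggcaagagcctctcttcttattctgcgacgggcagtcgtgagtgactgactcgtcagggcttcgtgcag
Tex101: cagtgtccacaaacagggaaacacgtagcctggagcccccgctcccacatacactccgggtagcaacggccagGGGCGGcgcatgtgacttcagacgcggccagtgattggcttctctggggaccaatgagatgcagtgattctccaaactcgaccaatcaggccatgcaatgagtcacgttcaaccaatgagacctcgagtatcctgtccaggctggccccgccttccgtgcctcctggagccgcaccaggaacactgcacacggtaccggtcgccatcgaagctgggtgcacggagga
Prdm1: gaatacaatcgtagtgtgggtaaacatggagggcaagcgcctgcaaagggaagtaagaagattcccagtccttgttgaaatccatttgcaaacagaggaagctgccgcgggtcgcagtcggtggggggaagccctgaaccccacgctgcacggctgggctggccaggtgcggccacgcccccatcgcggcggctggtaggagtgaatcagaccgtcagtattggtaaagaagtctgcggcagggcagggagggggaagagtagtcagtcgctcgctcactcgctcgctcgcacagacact
Kit: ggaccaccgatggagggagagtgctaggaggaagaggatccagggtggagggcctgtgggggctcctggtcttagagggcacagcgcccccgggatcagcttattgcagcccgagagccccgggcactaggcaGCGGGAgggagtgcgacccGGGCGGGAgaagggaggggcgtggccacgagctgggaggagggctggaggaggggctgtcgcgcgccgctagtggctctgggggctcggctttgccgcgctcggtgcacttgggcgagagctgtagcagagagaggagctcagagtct
Slc25a31: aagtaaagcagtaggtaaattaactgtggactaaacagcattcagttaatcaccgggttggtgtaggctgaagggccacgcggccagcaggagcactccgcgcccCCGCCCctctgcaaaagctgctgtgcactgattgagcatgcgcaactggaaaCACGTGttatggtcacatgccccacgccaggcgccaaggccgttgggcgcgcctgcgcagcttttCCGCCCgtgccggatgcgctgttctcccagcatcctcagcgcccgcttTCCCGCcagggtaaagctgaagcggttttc
Sycp3: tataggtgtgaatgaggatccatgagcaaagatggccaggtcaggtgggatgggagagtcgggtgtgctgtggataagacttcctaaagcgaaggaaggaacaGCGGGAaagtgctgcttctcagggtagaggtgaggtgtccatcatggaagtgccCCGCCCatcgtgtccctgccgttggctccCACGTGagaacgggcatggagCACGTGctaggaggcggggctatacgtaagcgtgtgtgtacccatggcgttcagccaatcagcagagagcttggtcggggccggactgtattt

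The promoter table held 26 of the 34 genes, and the first listed start of each gene was used. CACGTG stood in 10 of the 26 promoters (38.5%), against 7.241% of the promoters of all 27025 genes in the table. The 10 were those of Ddx4, Taf7l, Ddx25, Sycp1, Sycp3, Hormad1, Mael, Mov10l1, Stk31 and Slc25a31. TCCCGC stood in 9 of 26 (34.6%, against 20.02%), and GGGCGG in 15 of 26 (57.7%, against 35.91%). The median number of CpG dinucleotides per promoter was 19.5 over the members and 7 over all genes, and it was 28 in Dazl, 19 in Tex101 and 10 in Stra8. Over the 26 promoters this number ranged from 2 in Zfp352 to 41 in Ddx25. Each of the 3 motifs contains a CpG, and the promoters of all genes were not matched to the members for CpG content. The part of CpG content in the higher motif shares was not tested. Of the 5 genes that passed the expression test described next, 0 had CACGTG in this window. That count depends on the threshold. Stk31 and Slc25a31 hold CACGTG and read higher in both KO clones, but did not pass (adjusted p = 0.058 and 0.073 by limma). Under some other settings both passed, and the other genes with CACGTG did not. Kit held 2 matches to TCCCGC and 1 to GGGCGG, Tex101 held 1 to GGGCGG, and Dazl, Stra8 and Prdm1 held none of the 3 motifs. A match describes the letters of the sequence and is not a measured binding site.

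The deposited intensities differed in level between arrays (trimmed means from 137.1 to 226, WT clone 1 brightest), and all intensities given here are quantile normalized. The brightest probe set of Klf5 gave 2398 (WT clone 1), 1782 (WT clone 2), 34.8 (KO clone 1) and 49.9 (KO clone 2), which separated the arrays as labelled. A dimmer Klf5 probe set read 102 and 88.6 in WT against 82.6 and 61.0 in KO. Its log2 difference of -0.35 did not pass (limma, adjusted p = 0.36), and a further Klf5 probe set was too dim to be tested. Of 10 ES cell markers, Pou5f1, Sox2 and Nanog among them, 0 passed the test by limma (1 at an unadjusted p under 0.05, which 21.5% of all genes reached), with summed intensities of 37853 and 38670.2 in WT versus 35916 and 36620.4 in KO. Of 13 tested fibroblast markers, 10 rose and 0 fell, and the summed intensity of the 14 measured was 4366 and 3118 in WT against 11806 and 11839 in KO. Among 6 tested primitive endoderm markers 0 passed by limma. The 1 at an unadjusted p under 0.05 was Pdgfra, which is counted among the fibroblast markers as well. Among 6 of trophectoderm 1 fell. Among 5 tested markers of Sertoli and granulosa cells, the somatic companions of germ cells, Sox9 rose and 4 did not pass. Sox9 was dim, at 3.75 and 8.59 in WT against 35.5 and 22.4 in KO. Wt1 read higher in both KO clones, Inha lower in both, and Foxl2 and Gata1 overlapped between genotypes. Amh and Fshr read at most 14.8 and were too dim to be tested. The part that fibroblast RNA has in any result on the germ cell genes was not tested. In RNA from whole cultures, fewer cells expressing a gene and less RNA per cell cannot be told apart.

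**Figure D1:**
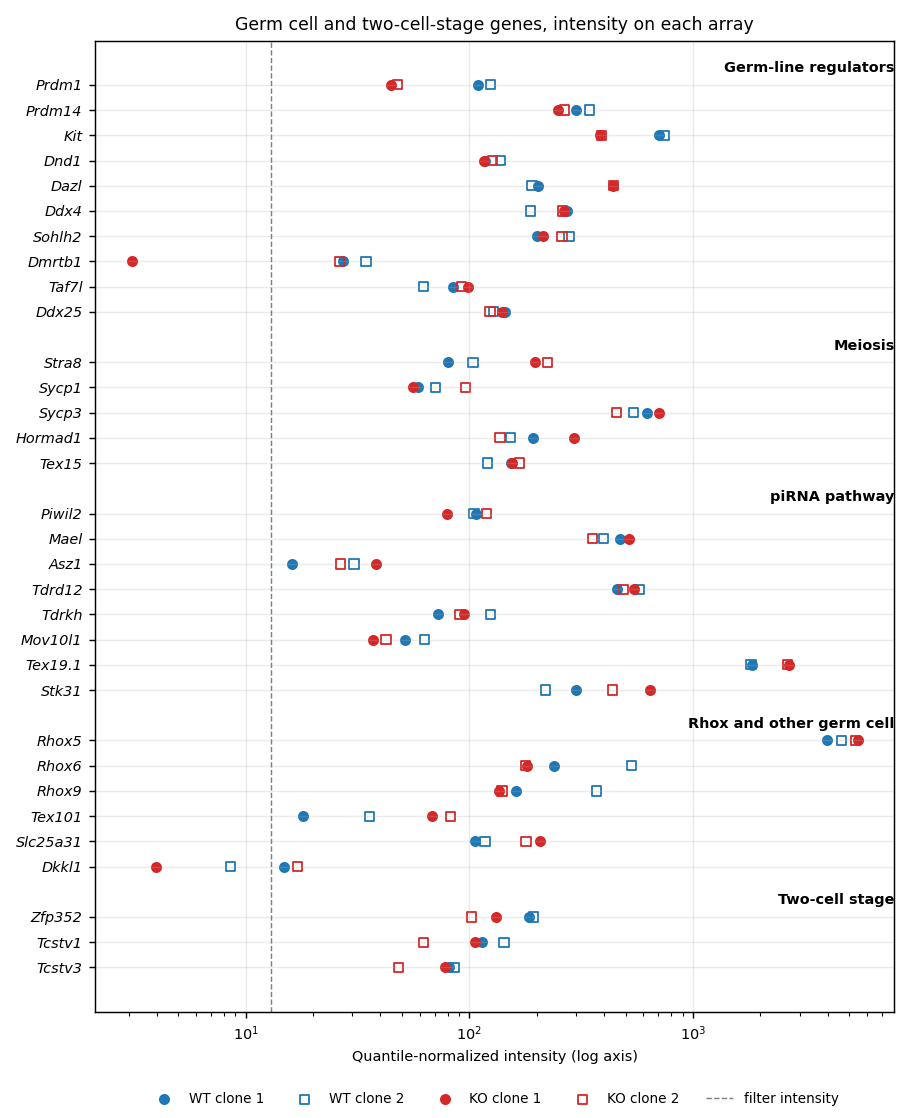
Quantile-normalized intensity (log axis) of the 32 measured genes on each of the 4 arrays, grouped by role, with WT clones in blue and KO clones in red (clone 1 filled, clone 2 open); the dashed line is the filter intensity of 13.05. The KO points of Dazl, Stra8 and Tex101 lie to the right of both WT points, those of Prdm1 and Kit lie to the left, and Rhox6 and Rhox9 have WT clone 2 apart from the other 3 arrays.

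Among the genes tested for a difference between KO and WT, 3 rose and 2 fell. Dazl, Stra8 and Tex101, which belong to germ cell translation, meiotic entry and the germ cell surface, were each about 2-fold higher in KO clones, while Prdm1 and Kit, which act in early germ cells, were lower. Of the 32 genes, 31 passed the filter on dim probe sets, and 26 of these did not pass the test (limma, threshold 0.05 on p-values adjusted over all 27022 kept probe sets). Over all 13023 genes tested, 2.94% were higher and 1.34% lower in KO, 4.28% in all. After centring each array on its median instead, the split was 3 higher and 5 lower among these genes, and 347 higher and 732 lower over all genes, against 383 and 175 as reported. A sign of RNA quality, the excess on the log2 scale of the Actb 3′ control over its 5′ control in the deposited intensities, was 0.40 and 0.49 in clones 1 and 2 of WT against 0.79 and 0.55 in those of KO, with no overlap between genotypes. Its part in these differences was not tested. The median log2 difference was -0.011 over the 31 genes and -0.024 over all genes, and the median size without regard to sign was 0.33 and 0.24. Without regard to the test, both KO clones lay above both WT clones for 9 genes (25.9% of all genes) and below them for 10 (29.7%), so that the groups did not overlap for 19 of 31, where 55.6% of all genes showed no overlap. The calls depended on having all 4 arrays: leaving out any 1, WT or KO, leaves 1 clone in a group, and calls were lost each time. Probe sets past the threshold also became fewer over the whole array. With 1 array left out, the log2 difference ran from 1.06 to 1.12 for Dazl, 0.88 to 1.23 for Stra8 and 0.77 to 1.44 for Tex101. It ran from -1.13 to -1.01 for Prdm1 and -0.92 to -0.83 for Kit.

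**Figure D2:**
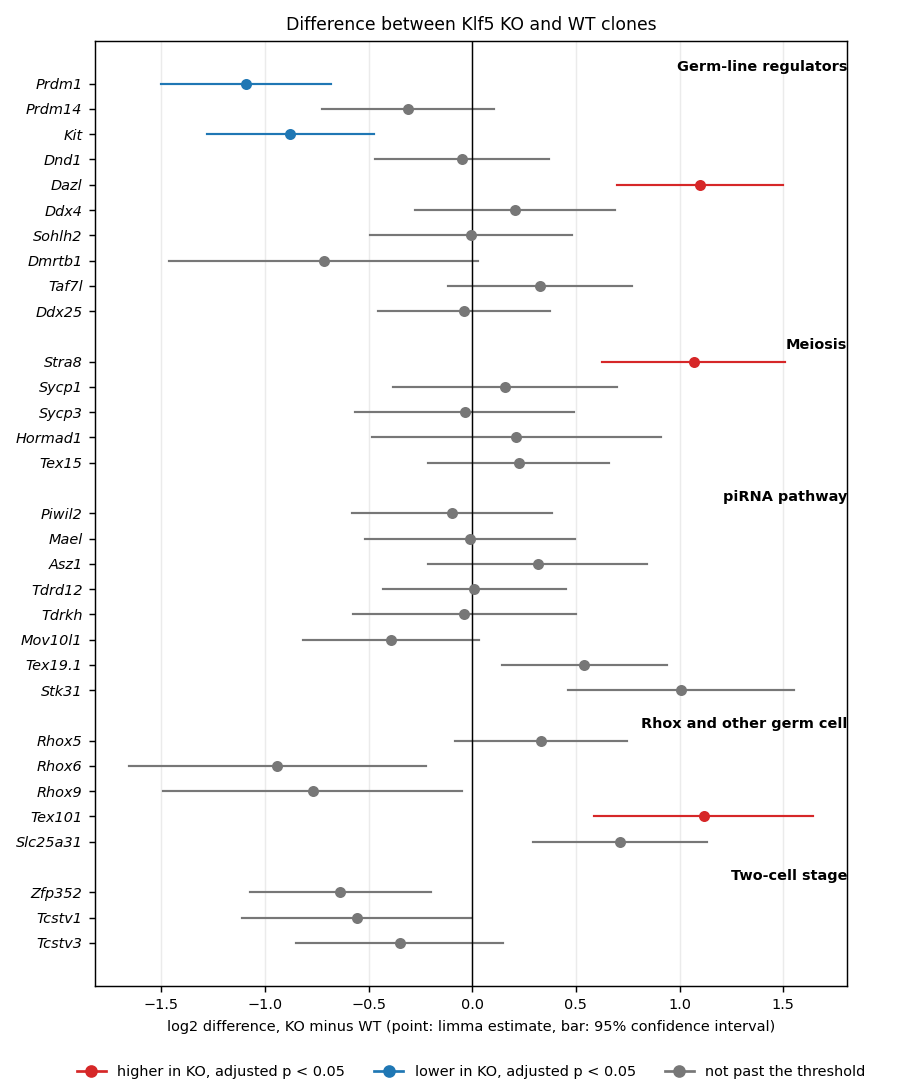
Log2 difference of KO minus WT for the 31 genes that passed the filter, with the 95% confidence interval from limma and colours for the calls. Intervals of Dazl, Stra8 and Tex101 lie above 0 and those of Prdm1 and Kit below 0, and most other intervals span 0.

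Of the 10 measured germ-line regulators, 1 rose, 2 fell and 7 did not pass. Dazl encodes an RNA-binding protein that controls translation in germ cells from the gonad stage onwards. Its brightest probe set read 203 and 190.5 in clones 1 and 2 of WT versus 437 and 442 in those of KO. The clones of a genotype lay close together, and the genotypes did not overlap. On the scale of log2(intensity + 16), Dazl rose by 1.10 ± 0.18 (standard error, n = 2 clones of each genotype; adjusted p = 0.013 by limma), or 2.14-fold. A second Dazl probe set read 158 and 184 in WT versus 287 and 329 in KO, with a log2 difference of 0.79 ± 0.19 that did not pass (adjusted p = 0.056). The call of the brighter probe set was kept without WT clone 1 and lost without WT clone 2 (adjusted p = 0.066), KO clone 1 (0.094) or KO clone 2 (0.068).

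Prdm1 (Blimp1), the repressor that sets germ cell precursors apart from the somatic epiblast, read 109 and 124 in WT versus 44.8 and 47.7 in KO clones. Both KO clones were well below both WT clones. Prdm1 fell by 1.09 ± 0.18 on the log2 scale (limma, adjusted p = 0.014), a 2.13-fold difference, and this call too was kept without WT clone 1 but lost without WT clone 2 (adjusted p = 0.079), KO clone 1 (0.11) or KO clone 2 (0.068). Kit, the receptor through which stem cell factor supports the survival and migration of germ cells, read 702 and 744 in WT versus 383 and 389 in KO. Its 4 values form a pair per genotype with no overlap. Kit fell by 0.88 ± 0.18 (limma, adjusted p = 0.031), and its other probe set, at 203 and 208 in WT against 86.3 and 116 in KO, fell by 0.93 ± 0.20 (adjusted p = 0.037). Kit was the only gene with both of its probe sets past the threshold, of 5 genes that had a pair of kept probe sets. With any array left out the brighter Kit probe set no longer passed (adjusted p from 0.080 to 0.16), while its difference stayed between -0.92 and -0.83.

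The remaining regulators did not pass, and most differed little. Prdm14, the partner of Prdm1 in germ cell specification, which ES cells also express, read 301 and 346 in WT versus 249 and 266 in KO, with a log2 difference of -0.31 (95% confidence interval -0.72 to 0.11). Both KO values were lower, by less than the interval can separate from 0. Dnd1, an RNA-binding protein required for germ cell survival, read 117 and 138 in WT versus 117 and 127 in KO, with the groups overlapping. Ddx4 (Vasa), an RNA helicase of germ granules, read 273 and 187 in WT versus 266 and 260.3 in KO. Its WT clones spanned the KO values, and the log2 difference was 0.21 (-0.28 to 0.69). Sohlh2, a helix-loop-helix factor of spermatogonia and young oocytes, had -0.0050 (-0.49 to 0.48), and Ddx25, a helicase of spermatids, had -0.039 (-0.46 to 0.38). Taf7l, an X-linked variant of a general transcription factor subunit, read 84.6 and 62.7 in WT against 99.1 and 92.0 in KO, with a difference of 0.33 (-0.12 to 0.77). Dmrtb1, a factor of the change from spermatogonia to meiosis, read 27.1 and 34.5 in WT versus 3.09 and 26.3 in KO. Only KO clone 1 was far from the rest, under the filter intensity of 13.05, and the difference of -0.72 had the interval -1.46 to 0.029.

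Of 5 meiosis genes, Stra8 rose and 4 did not pass. Stra8, the retinoic acid target that starts meiosis, read 80.6 and 104 in WT versus 196 and 223 in KO clones. Both KO clones were above both WT clones, and the genotypes did not overlap. Stra8 rose by 1.07 ± 0.20 on the log2 scale (limma, adjusted p = 0.022), a 2.096-fold difference. Its call was kept without WT clone 2 and lost without WT clone 1 (adjusted p = 0.096), KO clone 1 (0.11) or KO clone 2 (0.095).

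The other 4 meiosis genes did not pass, and their values overlapped between genotypes except for Tex15. Sycp3, an axis protein of the synaptonemal complex, read 621 and 543 in WT versus 704 and 453 in KO. The KO clones lay on either side of the WT clones, and the log2 difference was -0.037 (95% confidence interval -0.57 to 0.49). Sycp1, the transverse filament of the same complex, read 59.1 and 70.6 in WT versus 56.0 and 96.3 in KO, with a difference of 0.16 (-0.38 to 0.70). Hormad1, a protein of unsynapsed chromosome axes, read 193 and 153 in WT versus 294 and 137 in KO. KO clone 1 was 2.14 times KO clone 2, and the difference between genotypes was 0.21 (-0.49 to 0.91). Tex15, which acts in meiotic recombination and transposon silencing, had 0.22 (-0.21 to 0.66).

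Among the 8 piRNA pathway and transposon silencing genes, 0 passed by limma (2 at an unadjusted p under 0.05, Stk31 and Tex19.1, both higher in KO). Stk31, a tudor domain protein of germ cells, read 299 and 219 in WT versus 645 and 436 in KO. Both KO clones were above both WT clones, but the clones of each genotype differed from each other, and the log2 difference of 1.008 ± 0.24 did not pass (adjusted p = 0.058). Its other probe set, whose suffix (_x_at) marks probes that may match other transcripts, had 0.86 ± 0.20 (adjusted p = 0.052). Without WT clone 1 the first of these passed (adjusted p = 0.047). Tex19.1, which restrains retrotransposons in germ cells and is expressed in ES cells, read 1843 and 1817 in WT versus 2681 and 2657 in KO. The clones of each genotype were almost equal, and the difference of 0.54 (95% confidence interval 0.14 to 0.94) had an adjusted p of 0.13.

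For the other 6 genes of the pathway the test was not passed. The clones of the genotypes overlapped for Piwil2, Mael, Tdrd12 and Tdrkh, and for Asz1 on the brighter of its probe sets only. Piwil2, a Piwi protein, read 107 and 105.0 in WT versus 79.6 and 119.8 in KO. Mael, which acts in silencing by piRNAs, read 471 and 399 in WT versus 519 and 356 in KO. In both genes the KO values enclosed the WT values, and the differences were -0.099 (95% confidence interval -0.58 to 0.38) and -0.011 (-0.52 to 0.49). Tdrd12 had 0.0089 (-0.43 to 0.45) and Tdrkh -0.038 (-0.57 to 0.50); both are tudor domain proteins of piRNA biogenesis. Mov10l1, the helicase that feeds precursors into piRNA production, read 51.7 and 63.2 in WT versus 37.3 and 42.4 in KO, with -0.39 (-0.82 to 0.031). Its KO values were both lower than its WT values. Asz1, a mitochondrial scaffold of the pathway, was measured by a pair of dim probe sets that differed in size. The brighter read 16.1 and 30.5 in WT versus 38.4 and 26.5 in KO (log2 difference 0.32, adjusted p = 0.48), and the other read 8.80 and 16.3 in WT versus 41.6 and 31.8 in KO (0.89 ± 0.21, adjusted p = 0.054).

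Of the 6 Rhox homeobox and other germ cell genes, 1 rose, 4 did not pass and Dkkl1 was too dim to be tested. Tex101, a surface protein of germ cells, read 18.0 and 35.7 in WT versus 68.1 and 82.3 in KO clones. The genotypes did not overlap, and WT clone 1 was near the filter intensity. Tex101 rose by 1.12 ± 0.23 on the log2 scale (limma, adjusted p = 0.035), a 2.17-fold difference that depends on the pseudocount (1.52 with 1 and 0.62 with 64, adjusted p = 0.15 and 0.025). Its call was kept without WT clone 2 and lost without WT clone 1 (0.77, adjusted p = 0.15), KO clone 1 (0.15) or KO clone 2 (0.13). Slc25a31 (Ant4), the ADP/ATP carrier of meiotic cells, read 106 and 118 in WT versus 207 and 179 in KO, again without overlap. Its log2 difference of 0.71 ± 0.18 did not pass (adjusted p = 0.073). Dkkl1, a gene of developing sperm, read 14.8 and 8.54 in WT versus 3.97 and 17.0 in KO, with no order between the groups.

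The Rhox genes lie in a cluster on the X chromosome, with 1 annotated gene between Rhox5 and Rhox6 and 3 between Rhox6 and Rhox9. Rhox5 (Pem), the founding member of the cluster and abundant in ES cells, read 3989 and 4616 in WT versus 5473 and 5322 in KO. Both KO clones were higher, by 0.33 on the log2 scale (95% confidence interval -0.086 to 0.74), and the test was not passed (adjusted p = 0.35). Rhox6 read 239.8 and 533 in clones 1 and 2 of WT versus 181 and 178 in KO. Rhox9, a related gene whose transcript the probes may not fully tell from Rhox6, read 162 and 371 in WT versus 136 and 140.1 in KO. In both, WT clone 2 was more than 2 times WT clone 1 (2.22 and 2.29 times), and WT clone 1 was close above the KO clones. Rhox6 had a log2 difference of -0.94 ± 0.32 (adjusted p = 0.14) and Rhox9 of -0.77 ± 0.32 (adjusted p = 0.22). Without WT clone 2 these were -0.39 and -0.21 (adjusted p = 0.52 and 0.76), and without WT clone 1 they were -1.46 and -1.30 and passed (adjusted p = 0.0077 and 0.016), so that 1 array decides both values. Rhox13, the 1 further gene of the cluster with a row of its own, had 0.26 (adjusted p = 0.63).

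Of the 3 two-cell-stage genes measured, 0 passed by limma (2 at an unadjusted p under 0.05), and for all 3 the KO values lay below the WT values. Over all genes, both KO clones lay below both WT clones in 29.7%. Zfp352, a zinc finger gene of the two-cell embryo, read 185 and 194 in WT versus 131 and 102 in KO, with a log2 difference of -0.64 (95% confidence interval -1.07 to -0.20; adjusted p = 0.11). Its other probe set (_x_at) read 180.3 and 187 in WT versus 116 and 93.6 in KO, with -0.73 (adjusted p = 0.072). Tcstv1 read 114 and 143 in WT versus 106 and 62.2 in KO, with -0.56 (-1.11 to -0.0083). Tcstv3, its near relative, which the probes may not fully tell apart, read 80.9 and 85.5 in WT versus 78.3 and 48.3 in KO, with -0.35 (-0.85 to 0.15). In all 3 genes KO clone 2 was the lowest array, and the median difference of KO clone 2 minus KO clone 1 was -0.55 over the 3 against 0.054 over all genes. Without KO clone 2 the differences from WT were -0.48, -0.24 and -0.075.

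**Figure D3:**
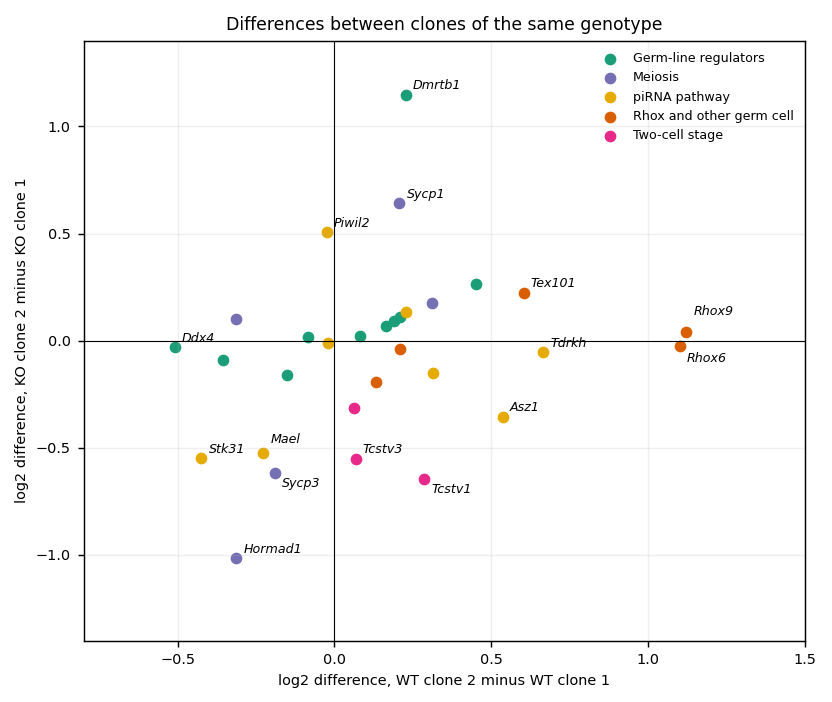
Log2 difference between the WT clones (horizontal) and between the KO clones (vertical) for the 31 tested genes, coloured by role. Rhox6 and Rhox9 lie together at 1.10 and 1.12 on the horizontal axis, Dmrtb1 and Hormad1 at 1.15 and -1.02 on the vertical axis, and the 3 two-cell-stage genes below 0 on the vertical axis.

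Clones of the same genotype differed by more than 0.5 on the log2 scale, in WT or in KO, in 15 of the 31 tested genes. The genotypes differed by more than 0.5 in 13 of 31, where 2338 of all 13023 genes did so. These counts are not on equal terms. Each clone difference is between single arrays, and the genotype difference is between means of clones. The share of all genes with such a clone difference was not counted, so it is not shown to be particular to these genes. The WT clones differed by more than 0.5 on the log2 scale in 6 of 31 genes (Ddx4, Tdrkh, Asz1, Tex101, Rhox6 and Rhox9). The KO clones differed by more than 0.5 in 9 others (Dmrtb1, Sycp1, Sycp3, Hormad1, Piwil2, Mael, Stk31, Tcstv1 and Tcstv3). Of the 5 genes that passed, Tex101 alone was among these 15, but the test itself favours genes whose clones lie close together.

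**Figure D4:**
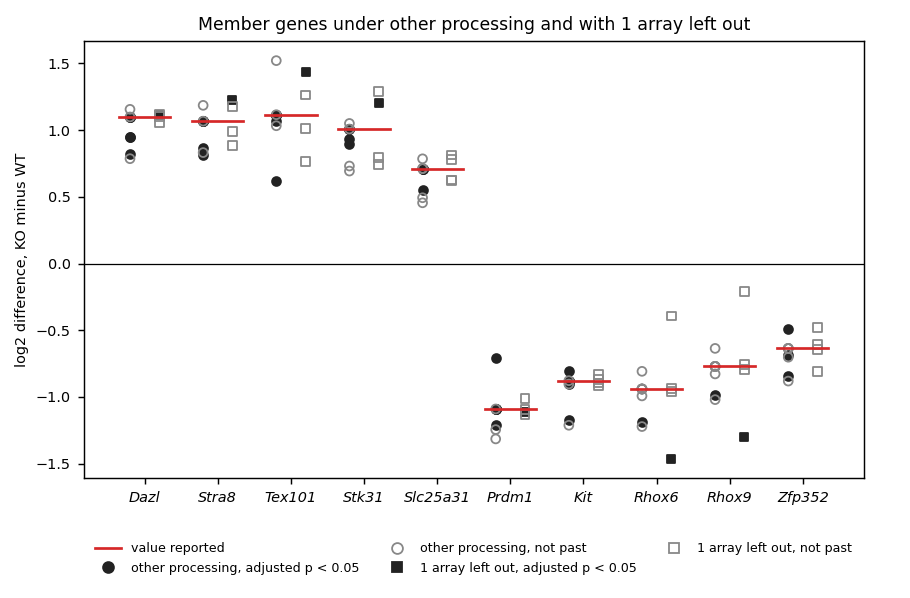
Log2 difference of KO minus WT for 10 genes as reported (red line), under other processing (circles) and with 1 array left out (squares), filled where the adjusted p was under 0.05. All values of a gene stay on one side of 0, which largely follows from showing genes whose genotypes do not overlap. Among members not shown some changed sign, Tdrd12 in 4 of 13 alternatives. Rhox6 and Rhox9 spread most between leave-outs, and most squares are open.

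Other genes of the same pathways moved in small numbers and in both directions. Of 19 further tested genes of germ cell specification and differentiation, 1 rose and 2 fell. Boll, a relative of Dazl, rose from 27.4 and 27.9 in WT to 75.3 and 72.3 in KO, by 1.04 ± 0.18 on the log2 scale (limma, adjusted p = 0.016), on a probe set of a kind (suffix _s_at) that may also bind relatives; its 3 dimmer probe sets had 0.41 to 0.78 and did not pass. Bmp4, the signal that induces germ cell precursors, fell from 774 and 1021 to 415 and 358 (by 1.17 ± 0.21, adjusted p = 0.018), and the AKT co-activator gene Tcl1 fell by 1.27 ± 0.20 (adjusted p = 0.010). Of the 19 genes, 12 had a negative log2 difference and 7 a positive one, with a median of -0.19. Over all genes, 6879 of 13023 were negative, with a median of -0.024. The 12 include Pou5f1, Esrrb and Utf1, which were also counted as ES cell markers. Of 3 early germ cell markers chosen after their values were seen, Dppa3 (Stella) had 0.96, Ifitm1 -0.59 and Ifitm3 -0.46, and none passed (adjusted p = 0.11, 0.14 and 0.25). With 1 array left out, Boll failed each time (adjusted p up to 0.11), Bmp4 passed in 1 of 4 cases and Tcl1 in 3 of 4.

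Of 19 further tested meiosis genes, Brca2, a recombination gene that all dividing cells use, fell from 606 and 577 to 270.2 and 347 (by 0.91 ± 0.19, limma, adjusted p = 0.038), and 18 did not pass. Of 12 further piRNA pathway genes, Mov10, a widely expressed relative of Mov10l1, fell from 352 and 365 to 158 and 205 (by 0.93 ± 0.19, adjusted p = 0.036), and 11 did not pass; a second, dim Mov10 probe set had 0.017. Of 14 further tested genes listed under the two-cell stage, 1 rose, 1 fell and 12 did not pass. Obox6, an oocyte and early embryo homeobox gene, rose from 49.3 and 53.5 to 99.4 and 122 (by 0.91 ± 0.19, limma, adjusted p = 0.035). Zfp809, on the list though it is a repressor of retroviral elements, fell. It went from 530.0 and 498 to 282 and 275 (by 0.85 ± 0.18, limma, adjusted p = 0.036). The median over these 14 genes was -0.28, beside -0.024 over all genes. All 4 calls were lost with any 1 array left out.

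Of 25 tested repressors of germ-line and two-cell-stage genes, 0 rose, 1 fell and 24 did not pass. Ehmt2 (G9a), a histone methyltransferase that silences germ-line genes, read 1049.6 and 1048.6 in WT versus 538 and 589 in KO. Its KO clones lay well below its WT clones, and it fell by 0.88 ± 0.18 on the log2 scale (limma, adjusted p = 0.032), as did its other probe set by 1.04 ± 0.19 (adjusted p = 0.020). The call of the brighter probe set was lost with any 1 array left out (adjusted p up to 0.18). Without regard to the test, 15 of the 25 read lower in both KO clones (29.7% over all genes) and 4 higher (25.9%), with a median of -0.21 and no test of the list. The 5 DNA methylation genes named next were chosen after their values were seen, and none passed. The maintenance genes Dnmt1 and Uhrf1 had -0.72 and -0.68 (adjusted p = 0.065 and 0.10). The de novo enzymes Dnmt3a and Dnmt3b had 0.86 and -0.38, and their cofactor Dnmt3l had -0.38 (adjusted p = 0.061, 0.32 and 0.29).

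**Figure D5:**
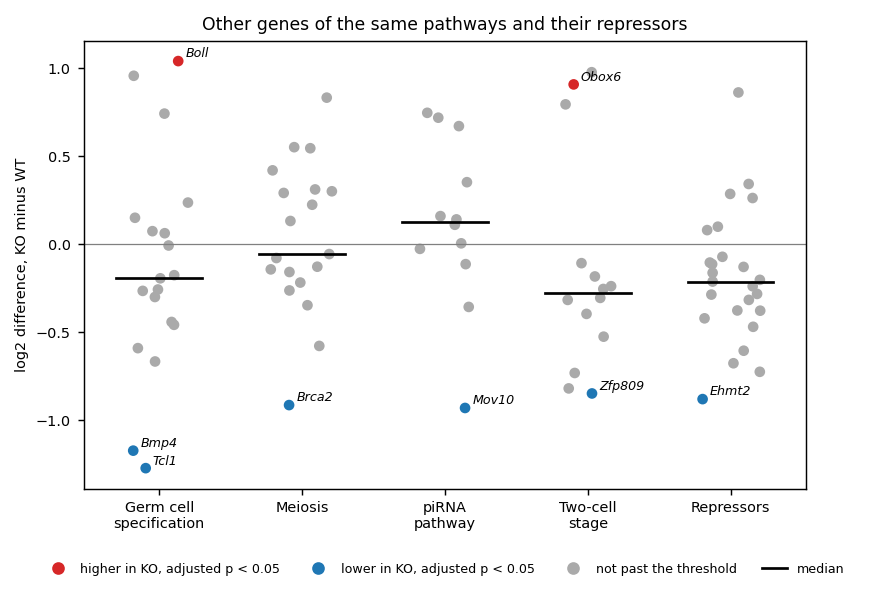
Log2 difference of KO minus WT for the tested genes of 5 further lists, 1 point per gene, with the median as a bar and the 8 called genes named. The calls run both ways, and the medians lie between -0.28 and 0.13.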

How the data were processed

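Probe set values from 4 arrays (2 WT and 2 Klf5 KO clones, grouped by title) were analysed. The values deposited by the authors are linear intensities, 1 per probe set and array. Labelling followed the Affymetrix manual, per the labels, and for the summarising algorithm, background correction and scaling nothing is given in the sources used here. All 45101 rows were quantile normalized, and log2(intensity + 16) was taken, which understates changes of dim genes. After removal of 64 control rows, the 40% of probe sets with the lowest mean (below an intensity of 13.05) were left out, which left 27022. Models were fitted with limma 3.58.1 (R 4.3.3; lmFit, then eBayes with 6.87 prior and 2 residual degrees of freedom), with Benjamini-Hochberg adjustment over all kept probe sets, and were tested on simulated data. Errors are moderated standard errors. Precision is limited by the number of arrays. Names came from the platform annotation (34958 rows with 1 symbol, 932 with several, 9160 with none). A gene was represented by its kept probe set of highest mean, one ending in _x_at last.

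The genes and lists were chosen with earlier results of these data known. All measured members are named; of each further list, up to 2 rises and 2 falls past the threshold. Promoters, names and gene order came from RefSeq tables (GRCm38.p6). Alternatives changed the pseudocount, filter, normalization, variance prior, clone block, arrays and probe set rule.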

Additional observations from a re-analysis of the deposited data

How the results depend on the processing

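With 2 clones per group, the counts of calls moved with most settings. The direction of the 5 called genes was kept under all 13 alternatives. Their genotypes do not overlap, so leaving out 1 array could hardly reverse it, and it is no separate support for the calls. The 996 probe sets past the threshold became 189 with a pseudocount of 1, 2060 with one of 64, 190 with no filter, 332 without between-array normalization, 2060 with each array's median centred and 1955 with a variance trend, and 203 to 653 with 1 array left out. The 3 members called higher became 0 with a pseudocount of 1, with no filter and without between-array normalization (6, 6 and 3 by limma at an unadjusted p under 0.05). They became 6 with a pseudocount of 64 or a variance trend, 5 with the stricter filter or when a gene's probe sets were averaged, and 0 to 2 with 1 array left out. The additional calls were Stk31, Slc25a31 and Tex19.1. The 2 called lower became 0 with a pseudocount of 1, with no filter and without between-array normalization (3, 4 and 7 at an unadjusted p under 0.05), 5 with each array's median centred, with Rhox6, Rhox9 and Zfp352 added, and 0 to 3 with 1 array left out. No normalization and centring shift the median of all genes to -0.23 and -0.19, beside members' medians of -0.28 and -0.25. With clone number as a replicate block, 1390 probe sets, 4 members higher (Stk31 added) and 2 lower passed. The numbers name clones only: deviations of same-numbered clones correlated at 0.055 over 27022 probe sets. The cause of these changes was not tested. Dmrtb1, Dkkl1 and Asz1 lie near the filter intensity.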
